A study of Mus musculus with 16 samples.

Results

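Brown adipose tissue of mice that fasted for 24 h was compared with brown adipose tissue of fed mice, using 2 of the 16 short-read RNA-Seq libraries of the series. The libraries were identified by their labels, 1 labelled fed and 1 labelled fasting. The mice were male C57BL/6 animals acquired at 12 weeks of age. They were held for at least 10 days on standard chow before the experiment. The fed group kept free access to chow, the fasting group went without food for 24 h, and the tissue of the 3 mice of each group was combined before RNA extraction. No genetic change or drug was applied to either group, and the sources used here do not give the depot from which the brown adipose tissue was taken. Each pool gave 1 library, so that no value below has a replicate error, and differences between mice cannot be seen. The other 14 libraries, fed and fasting pools of muscle, liver, white adipose, heart, spleen, kidney and lung, served only for comparison. The comparison asks how gene expression in brown adipose tissue differed between the fed and the fasted state.

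Brown adipose tissue produces heat. Its adipocytes hold many small lipid droplets and many mitochondria, and uncoupling protein 1 (Ucp1) lets protons return across the inner mitochondrial membrane without ATP synthesis. Noradrenaline from sympathetic nerves acts through beta-adrenergic receptors and cyclic AMP to start lipolysis and to raise the expression of Ucp1. The tissue takes up fatty acids and glucose from the blood, and in fed animals it also makes fatty acids from glucose. Insulin raises this synthesis through the factors SREBP-1c and ChREBP, whereas glucocorticoids and the FoxO factors act when insulin is low.

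The fed library held 16608129 counts and the fasting library 14245178, the lowest total of the 16, which reached up to 36069968. Levels are given in CPM, the counts of a gene scaled by the total of its library. A count of 3, used here as the floor, corresponded to 0.181 CPM in the fed and 0.211 CPM in the fasting library. A fold change is (CPM fasting + 0.01)/(CPM fed + 0.01), on the log2 scale. For each of the 25808 genes with a count in either library, a two-sided Fisher's exact test was run. A gene was called where the unadjusted p-value was under 0.01 and the log2 fold change above 0.5 in size. "Rose" and "fell" are used only for called genes. The test compares these 2 libraries and not the 2 conditions, and the intervals in brackets are exact 95% intervals that cover counting error only. In whole tissue, fewer cells of a type and less RNA per cell cannot be told apart. It is not stated with which strand setting the reads were counted, so the reads of a gene and of an overlapping neighbour may not be told apart.

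The defining markers Ucp1 and Cidea were high in both libraries. Ucp1, on chromosome 8 (83290352 to 83298452, GRCm38), stood at 3132 CPM in the fed and 2498 CPM in the fasting library, and the log2 fold change was -0.33 [-0.35, -0.31]. Cidea, a lipid droplet protein that brown adipocytes express, stood at 1838 CPM fed and 1882 CPM fasting, with a log2 fold change of 0.03 [0.01, 0.06]. Neither gene was called. Per kilobase of gene length, Ucp1 was the 3rd highest protein-coding gene in the fed library and the 6th in the fasting library, and Cidea was the 8th and the 3rd. Scd1, the main stearoyl-CoA desaturase of adipose tissue, was the highest in both, at 55437 CPM fed and 60840 CPM fasting. The summed level of 8 brown adipocyte markers was 6151 CPM fed and 5568 CPM fasting, and that of 10 markers shared by adipocytes was 16652 and 20357 CPM. Of the 8, the potassium channel gene Kcnk3 (315 to 457 CPM) and the factors Zic1 (8.91 to 14.6 CPM) and Lhx8 (3.25 to 6.18 CPM) rose, and the proton channel gene Otop1 fell from 184 to 120 CPM. The same 8 brown adipocyte markers summed to 26.3 CPM in fed and 51.7 CPM in fasting white adipose tissue.

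Skeletal muscle genes were present in both brown adipose libraries and were lower in the fasting one. The 10 markers of fast skeletal muscle summed to 3146 CPM fed and 1433 CPM fasting, which is 1.83% and 0.845% of the sums in the fed and fasting muscle libraries. All 10 fell, with log2 fold changes from -1.55 (Mylpf) to -0.94 (Myh4). The 6 markers of slow skeletal muscle summed to 112 CPM fed and 18.8 CPM fasting, and all 6 fell. In the muscle libraries these slow markers summed to only 324.9 CPM fed and 120.7 CPM fasting, so that brown adipose tissue held a larger share of the muscle level for slow than for fast markers. Titin (Ttn), a muscle gene, stood at 4994 CPM fed and 2003 CPM fasting, the myosin gene Myh4 at 1272 and 663 CPM, nebulin (Neb) at 554 and 250 CPM, and skeletal actin (Acta1) at 415 and 153 CPM. These were the 4 highest called genes among those at least 20 times higher in muscle tissue than in brown adipose tissue. Of the 212 such genes with a mean of at least 1 CPM in brown adipose tissue, 152 fell and 6 rose. Genes of this kind are left out of the largest changes below but are counted in the lists and in the background shares. A subtraction of the muscle part, scaled by the fast markers, is among the alternatives given at the end. Beyond it, the part of muscle in any other difference was not tested.

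**Figure D1:**
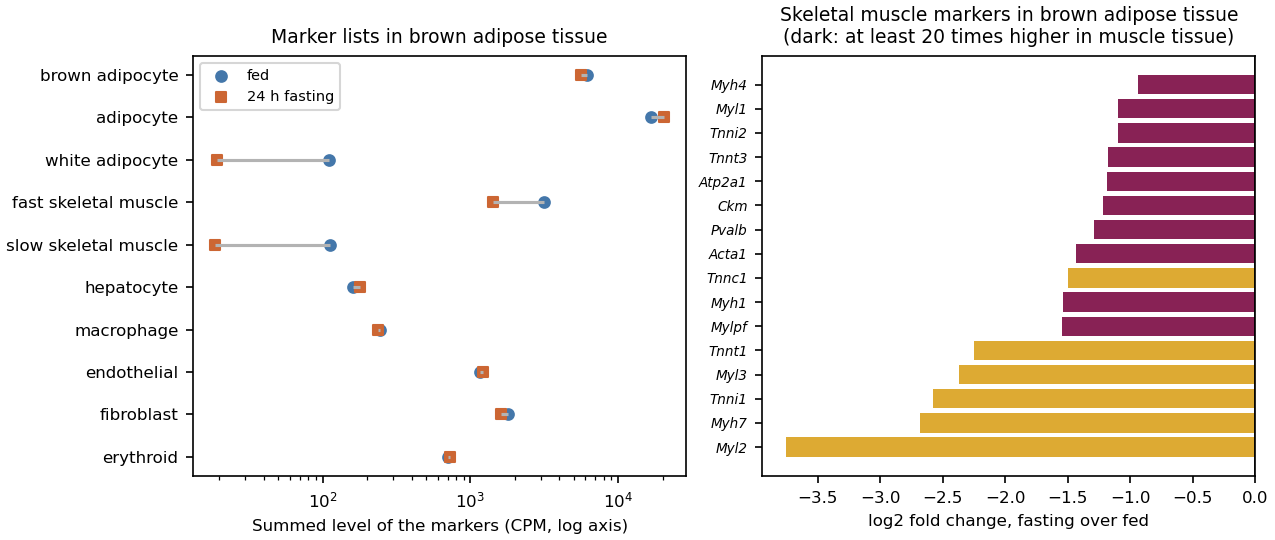
Left, summed level in CPM (log axis) of 10 marker lists in the fed (circle) and the fasting (square) brown adipose library. Right, log2 fold change of each fast and slow skeletal muscle marker, where dark bars are genes at least 20 times higher in muscle tissue; all 16 markers lie below 0, whereas the brown adipocyte sums are close, at 6151 and 5568 CPM.

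Members of other cell type lists were called as well. Among all genes with a mean of at least 1 CPM, 8.71% rose and 12.2% fell, so 1 call in a list of 10 is near these shares. The 10 hepatocyte markers summed to 159 CPM fed and 180 CPM fasting with no call. The 7 erythroid markers summed to 700 and 732 CPM with no call. Of 10 macrophage markers, Cd163, the haemoglobin scavenger receptor, rose from 18.5 to 43.6 CPM and the other 9 were not called. Endothelial markers summed to 1153 and 1212 CPM, with Pecam1 called higher (138 to 204 CPM) and Kdr called lower (290 to 202 CPM). The call of Kdr was lost with TMM factors (-0.49). Fibroblast markers summed to 1792 and 1623 CPM, and 3 of 8 fell, among them the collagen genes Col1a1 and Col1a2. The list of 6 white adipocyte markers summed to 111 CPM fed and 19.3 CPM fasting with 3 falls (Lep, Nnat and Sncg), and of these sums leptin (Lep) alone gave 62.2 and 4.14 CPM. Lymphocyte markers were low, with sums of 23.8 and 13.2 CPM for 10 B cell genes (2 fell) and 14.1 and 6.46 CPM for 10 T cell genes (1 fell). The sums were 878 and 863 CPM for smooth muscle and pericyte markers (2 of 7 rose) and 140.1 and 112 CPM for Schwann cell and neuron markers (1 rose and 1 fell). Cardiomyocyte markers gave 6.44 and 3.65 CPM, and mast cell and granulocyte markers 6.98 and 3.93 CPM, with 1 fall in each list.

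Over all 25808 genes, 1390 rose (5.39%) and 1956 fell (7.58%). Among the 14853 genes with a mean of at least 1 CPM in the 2 libraries, 1294 rose (8.71%) and 1805 fell (12.2%), and the median log2 fold change was -0.03. These 2 shares are the background against which the lists above and below are read. Without the genes at least 20 times higher in muscle, 1384 rose and 1786 fell. Of the calls, 546 rises and 878 falls were larger than 2-fold. A further 3202 genes had a p-value under 0.01 with a smaller fold change.

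The largest rise among genes with a mean of at least 10 CPM was that of Depp1, a FoxO target linked to autophagy, on chromosome 6 (116650609 to 116652794). It had 12.7 CPM in the fed and 442 CPM in the fasting library, and the log2 fold change was 5.12 [4.92, 5.33]. Scd3, a paralogue of Scd1, followed with 4.40 CPM fed and 81.8 CPM fasting, and Acot1, a thioesterase that releases fatty acids from acyl-CoA, with 1.69 and 28.2 CPM. Paralogues of this kind share sequence, and how reads shared between them were counted is not stated. Cyp2b10, a cytochrome P450, had 4.52 CPM fed and 73.6 CPM fasting. Ddit4, an inhibitor of mTORC1, rose from 10.9 to 145 CPM (3.73 [3.51, 3.96]), and Fkbp5, a co-chaperone of the glucocorticoid receptor, from 10.8 to 136 CPM (3.65 [3.43, 3.88]). AC154912.3 rose from 1.81 to 32.2 CPM, but it lies within Fkbp5 on the same strand. Gm15471 rose from 1.69 to 20.2 CPM and overlaps Dclre1b on the opposite strand. The others were Pik3ip1, a negative regulator of phosphatidylinositol 3-kinase (4.58 to 50.7 CPM), the Myc family gene Mycl (5.96 to 59.7 CPM), the amino acid transporter Slc7a8 (6.02 to 57.4 CPM) and the F-box gene Fbxo31 (46.1 to 424 CPM).

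Among the largest falls were genes of lipid and fructose handling. Slc2a5, the fructose transporter, had 27.4 CPM in the fed and 0.772 CPM in the fasting library, and the log2 fold change was -5.13 [-6.16, -4.30]. Lep had 62.2 and 4.14 CPM (-3.91 [-4.31, -3.53]). Scd2, a further stearoyl-CoA desaturase, had 572 CPM fed and 40.7 CPM fasting. Acly, the ATP citrate lyase that makes cytosolic acetyl-CoA, lies on chromosome 11 (100476353 to 100528000) and had 4331 CPM fed and 382 CPM fasting, with a log2 fold change of -3.50 [-3.54, -3.46]. Tfrc, the transferrin receptor that takes up iron, fell from 551 to 30.2 CPM (-4.19 [-4.33, -4.05]). Hcar1, the lactate receptor of adipocytes, fell from 58.9 to 7.37 CPM, and Cish, an inhibitor of cytokine signalling through STAT5, from 103 to 14.2 CPM. Fer1l6 fell from 23.96 to 0.772 CPM and 6430571L13Rik from 25.3 to 2.25 CPM. The largest fall was that of Rnu2-10, a small nuclear RNA gene of a multicopy family, with 71.5 CPM fed and 0.281 CPM fasting. Myh7 (66.7 to 10.4 CPM) and Camk2b (19.8 to 3.16 CPM) completed the 12 falls. Myh7 is the slow myosin of muscle and heart and is on the slow muscle list above, and Camk2b was 8.39 times higher in muscle than in brown adipose tissue, so the limit of 20 times left both in.

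**Figure D2:**
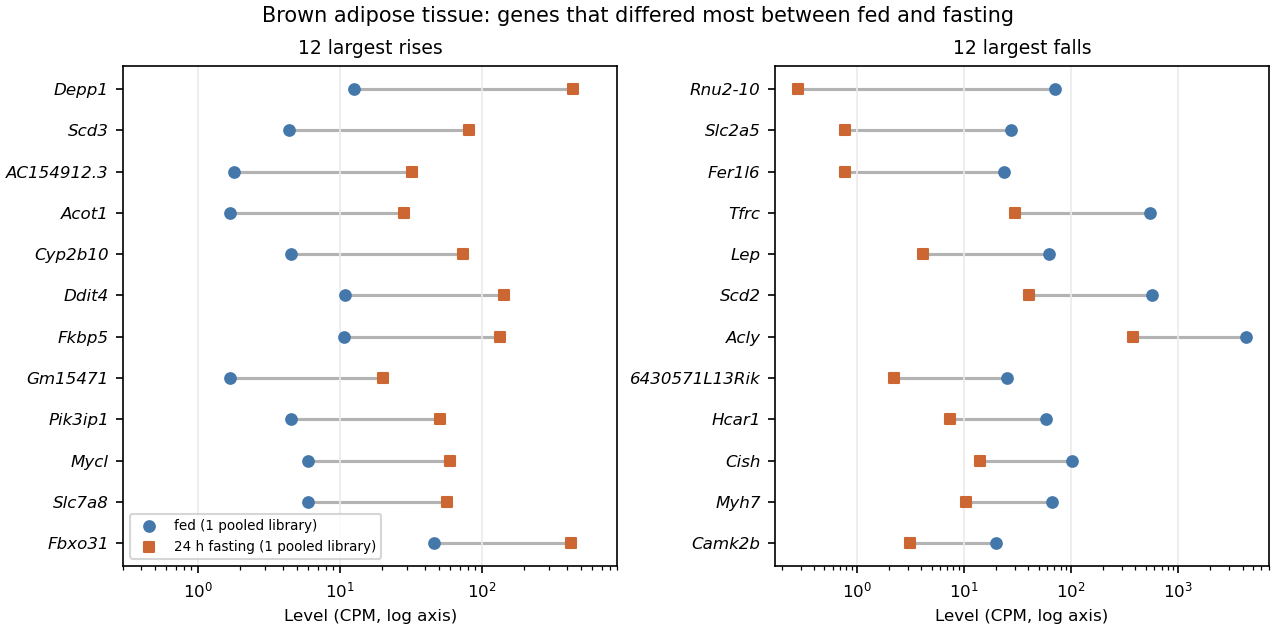
Level in CPM (log axis) in the fed (circle) and the fasting (square) brown adipose library for the 12 largest rises and the 12 largest falls among called genes with a mean of at least 10 CPM, without genes at least 20 times higher in muscle. Each point is 1 pooled library; Depp1 moved from 12.7 to 442 CPM and Acly from 4331 to 382 CPM.

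Genes of thermogenesis moved both ways. Of 32 members with a mean of at least 1 CPM, 8 rose and 7 fell, and the list's median log2 fold change was -0.13 against -0.03 over all genes. Slc27a2, a very long-chain acyl-CoA synthetase, rose from 230 to 783 CPM (1.77 [1.72, 1.82]). Elovl3, an elongase that marks active brown fat, rose from 10.4 to 29.4 CPM, the creatine transporter Slc6a8 from 48.0 to 104 CPM, and Irf4, a factor that acts on Ucp1, from 65.3 to 125 CPM. Acot11, a thioesterase of brown fat, fell from 518 to 110 CPM (-2.24 [-2.32, -2.16]). Prdm16, the factor that sets brown adipocyte identity, fell from 54.9 to 28.2 CPM, and the receptor channel P2rx5 from 128 to 65.9 CPM. The cytochrome oxidase subunit Cox8b, at 611 and 542 CPM, was not called.

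The beta-adrenergic receptors fell. Adrb3, the receptor of adipocytes, had 250 CPM fed and 82.8 CPM fasting, with a log2 fold change of -1.59 [-1.69, -1.50], and Adrb1 had 47.0 and 14.04 CPM (-1.74 [-1.97, -1.52]). The G protein subunit Gnas (2051 and 2287 CPM) and the kinase subunit Prkar2b (1821 and 1616 CPM), which pass the signal on, were not called. The phosphodiesterase Pde3b, which degrades cyclic AMP, rose from 629 to 1123 CPM and Pde4b fell from 25.5 to 14.04 CPM. Nr4a3, a nuclear receptor induced by cyclic AMP, rose from 5.48 to 42.6 CPM (2.96 [2.64, 3.29]), Nr4a1 from 128 to 239 CPM and Rgs2, a regulator of G protein signalling, from 302 to 651 CPM. In all, 6 of 23 members with a mean of at least 1 CPM rose and 3 fell, and the share of falls was near that of all genes.

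The main lipases Pnpla2 and Lipe were not called. Pnpla2, the adipose triglyceride lipase, stood at 1798 CPM fed and 2216 CPM fasting, and Lipe, the hormone-sensitive lipase, at 1443 and 1111 CPM. The droplet coat protein Plin1 stood at 1259 and 927.8 CPM. Of 22 members, 2 rose and 3 fell, shares near those of all genes. Cidec, which enlarges lipid droplets (705 to 1528 CPM), and Hilpda, an inhibitor of Pnpla2 (5.84 to 18.0 CPM), rose. Pnpla3 (217 to 58.2 CPM), Cideb and the muscle-dominant Fitm1 fell.

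Uptake of fatty acids split between members. Lpl, the lipase that frees fatty acids from circulating triglycerides, rose from 3020 to 5543 CPM (0.88 [0.86, 0.89]). The fatty acid transport protein Slc27a1 rose from 192 to 473 CPM and the acyl-CoA synthetase Acsl1 from 2807 to 4182 CPM. Acsl5, another synthetase, fell from 391 to 129.9 CPM, and Angptl8, a regulator of Lpl, from 27.6 to 6.95 CPM. Fabp4, the adipocyte fatty acid binding protein, stood at 5741 and 6627 CPM and was not called. Of 22 members, 5 rose and 5 fell.

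Fatty acid oxidation genes were called in the direction of a rise more often than of a fall. Of 36 members with a mean of at least 1 CPM, 7 rose and 1 fell, and the median log2 fold change was 0.18. Ehhadh, the bifunctional enzyme of peroxisomes, rose from 142 to 386 CPM (1.45 [1.38, 1.52]), and Cpt1a, which lets fatty acids enter mitochondria, from 22.7 to 41.8 CPM. The thioesterases Acot2 (48.5 to 104 CPM) and Acot4 (8.37 to 22.6 CPM) rose with Acot1. Abcd2, a peroxisomal transporter, fell from 203 to 77.8 CPM. The abundant mitochondrial enzymes were not called, with Acadvl at 2051 and 2259 CPM, Acadm at 1988 and 2259 CPM and Hadhb at 2265 and 2176 CPM.

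Genes of fatty acid and triglyceride synthesis were mostly lower. Of 37 members with a mean of at least 1 CPM, 19 fell and 5 rose, with a median log2 fold change of -0.59. Beside Acly and Scd2, the acetyl-CoA synthetase Acss2 fell from 634 to 112 CPM (-2.51 [-2.58, -2.43]) and acetyl-CoA carboxylase Acaca from 5402 to 1367 CPM (-1.98). Fatty acid synthase, Fasn, fell from 28249 to 13937 CPM (-1.02 [-1.03, -1.01]). Per kilobase, Fasn was the 2nd highest protein-coding gene in the fed and the 12th in the fasting library. The factor Srebf1, which encodes SREBP-1, fell from 457 to 122 CPM, Mlxipl, which encodes ChREBP, from 318 to 212 CPM, and Thrsp, a lipogenic regulator, from 2176 to 664 CPM. The NADPH-producing enzymes Pgd (256 to 65.1 CPM), Me1 (536 to 175 CPM) and G6pdx (216 to 132 CPM) fell as well. Scd1 was not called, with 55437 CPM fed and 60840 CPM fasting (0.13), and its paralogue Scd3 rose. Of the members that rose, Gpat3 (21.2 to 32.8 CPM) and Lpin3 (5.36 to 8.85 CPM) act in glycerolipid assembly.

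Of 26 members of the cholesterol list, 18 fell, 1 rose and 7 were not called, with a median log2 fold change of -0.91. Sqle, the squalene epoxidase, fell from 20.6 to 5.69 CPM (-1.85 [-2.22, -1.50]), Mvk, the mevalonate kinase, from 15.0 to 5.90 CPM, Hmgcs1, the HMG-CoA synthase, from 374 to 178 CPM (-1.07), and Insig1, which retains SREBP in the endoplasmic reticulum, from 439 to 229 CPM. Fdft1, the squalene synthase, was the exception and rose from 138 to 497 CPM (1.84 [1.78, 1.91]). Fdft1 overlaps Ctsb on the opposite strand, and Ctsb stood at 1270 and 1340 CPM and was not called. Scap, the SREBP escort protein, stood at 57.6 and 63.5 CPM, and the isomerase Ebp at 24.1 and 23.9 CPM.

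**Figure D3:**
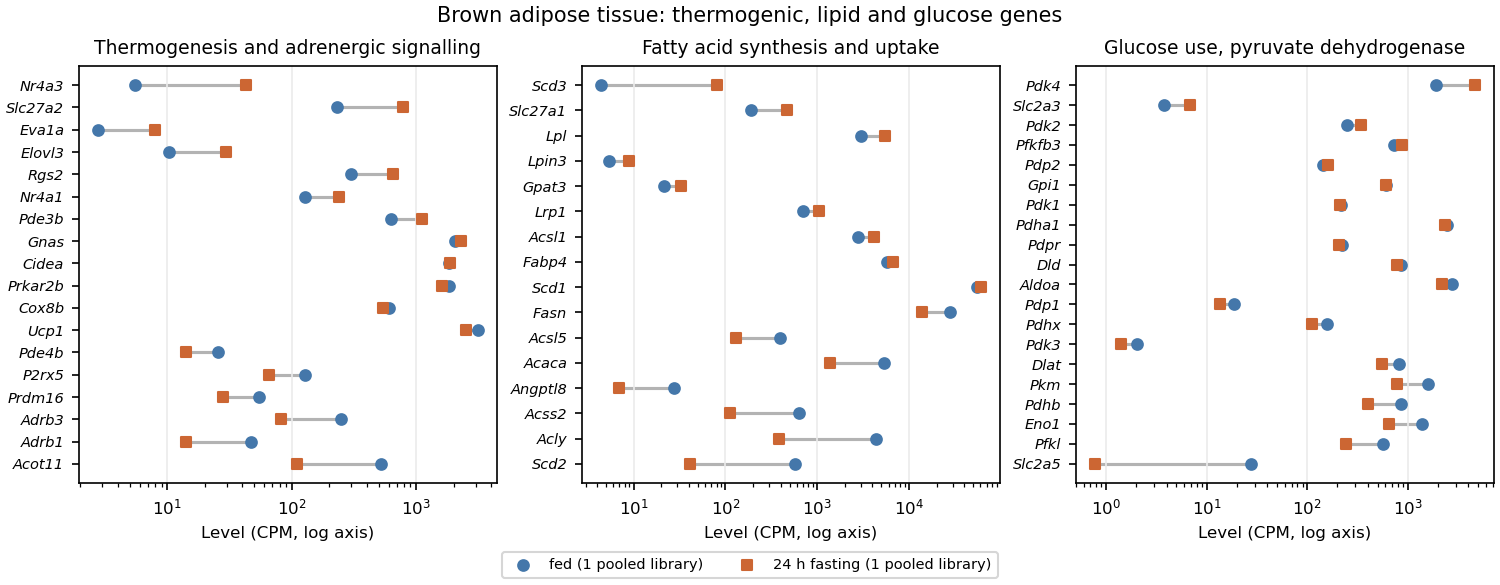
Level in CPM (log axis) in the fed (circle) and the fasting (square) brown adipose library for genes of thermogenesis and adrenergic signalling (left), fatty acid synthesis and uptake (middle) and glucose use with pyruvate dehydrogenase (right), each ordered by fold change. Lpl moved to the right, from 3020 to 5543 CPM, whereas Acly, Acss2 and Acaca moved to the left and Scd1 stayed between 55437 and 60840 CPM.

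Of 30 genes of glucose uptake and glycolysis, 15 fell, 1 rose and 14 were not called, with a median log2 fold change of -0.57. Slc2a4, the insulin-responsive glucose transporter, fell from 490 to 241 CPM, the phosphofructokinase Pfkl from 564 to 243 CPM (-1.22 [-1.27, -1.16]), the enolase Eno1 from 1379 to 644 CPM, and the pyruvate kinase Pkm from 1575 to 775 CPM. Of the 15, Eno3 and Pfkm were at least 20 times higher in muscle. Gpi1, at 607 and 612 CPM, and Pfkfb3, at 729 and 879 CPM, were not called. Slc2a3 rose from 3.79 to 6.81 CPM.

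At the step from pyruvate to acetyl-CoA, 1 of 12 genes rose and 2 fell, for so short a list near the shares of all genes. Pdk4, a kinase that inactivates pyruvate dehydrogenase, rose from 1915 to 4631 CPM (1.27 [1.25, 1.29]). Pdhb, a subunit of the complex, fell from 864 to 405 CPM (-1.09 [-1.14, -1.05]) and Dlat from 809 to 550 CPM. The subunits Pdha1 (2441 and 2344 CPM), Dld (864 and 774 CPM) and Pdhx (158 and 112 CPM) were not called. The kinases Pdk1 (219 and 210 CPM) and Pdk2 (247 and 341 CPM) were not called either. The log2 fold change of Pdk4 was positive in all 8 tissues, and that of brown adipose tissue was the 7th of 8 in order, above liver (0.63) and below white adipose tissue (3.48).

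Glycerol 3-phosphate, the backbone of triglycerides, can come from glucose or, by glyceroneogenesis, from pyruvate. Gpd1, which makes it from a glycolytic intermediate, fell from 5286 to 2504 CPM (-1.08 [-1.10, -1.06]). Pck1, the rate-limiting enzyme of glyceroneogenesis, rose from 4050 to 8243 CPM (1.03 [1.01, 1.04]), and its mitochondrial counterpart Pck2 from 24.9 to 73.5 CPM. Glycogen genes had 10 falls and no rise among 17 members, with a median log2 fold change of -0.72. Ppp1r3b, a subunit that targets protein phosphatase 1 to glycogen, fell from 469 to 114 CPM (-2.04 [-2.11, -1.96]), and the phosphorylase Pygl from 986 to 425 CPM. One of the 10, Pygm, was at least 20 times higher in muscle.

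The respiratory chain and the tricarboxylic acid cycle showed almost no calls. Of 79 oxidative phosphorylation genes, none rose, 2 fell (Ndufa11, 81.7 to 50.7 CPM, and Atp5g1, 8.61 to 5.41 CPM, the latter at least 20 times higher in muscle), and the median log2 fold change was -0.12. None of 18 cycle genes was called, and their median was -0.14. Atp5b, a subunit of the ATP synthase, stood at 4904 CPM fed and 5079 CPM fasting. Genes of branched-chain amino acid breakdown had no call among the 19 members with a mean of at least 1 CPM.

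The glucocorticoid and FoxO response list had the highest share of rises of the 28 pathway lists. Of 33 members with a mean of at least 1 CPM, 24 rose and 3 fell, and the median log2 fold change was 0.99. Zbtb16, a zinc finger factor, rose from 58.5 to 330 CPM (2.50 [2.40, 2.60]), Tsc22d3, which encodes the glucocorticoid-induced leucine zipper, from 51.7 to 172 CPM, Txnip, an alpha-arrestin that lowers glucose uptake, from 1549 to 3269 CPM (1.08 [1.06, 1.10]), and Bnip3, a mitophagy receptor, from 331 to 908 CPM. The factors Foxo1 (93.5 to 150.5 CPM) and Foxo3 (39.0 to 110 CPM) rose too. The muscle ubiquitin ligases Trim63 (7.41 to 29.4 CPM) and Fbxo32 (41.9 to 68.9 CPM) rose and were at least 20 times higher in muscle, a group in which 152 of 212 genes fell. The phosphatase gene Dusp1 (60.6 to 24.4 CPM), Pik3r1 (345 to 222 CPM) and Sesn3 (51.0 to 34.0 CPM) fell.

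**Figure D4:**
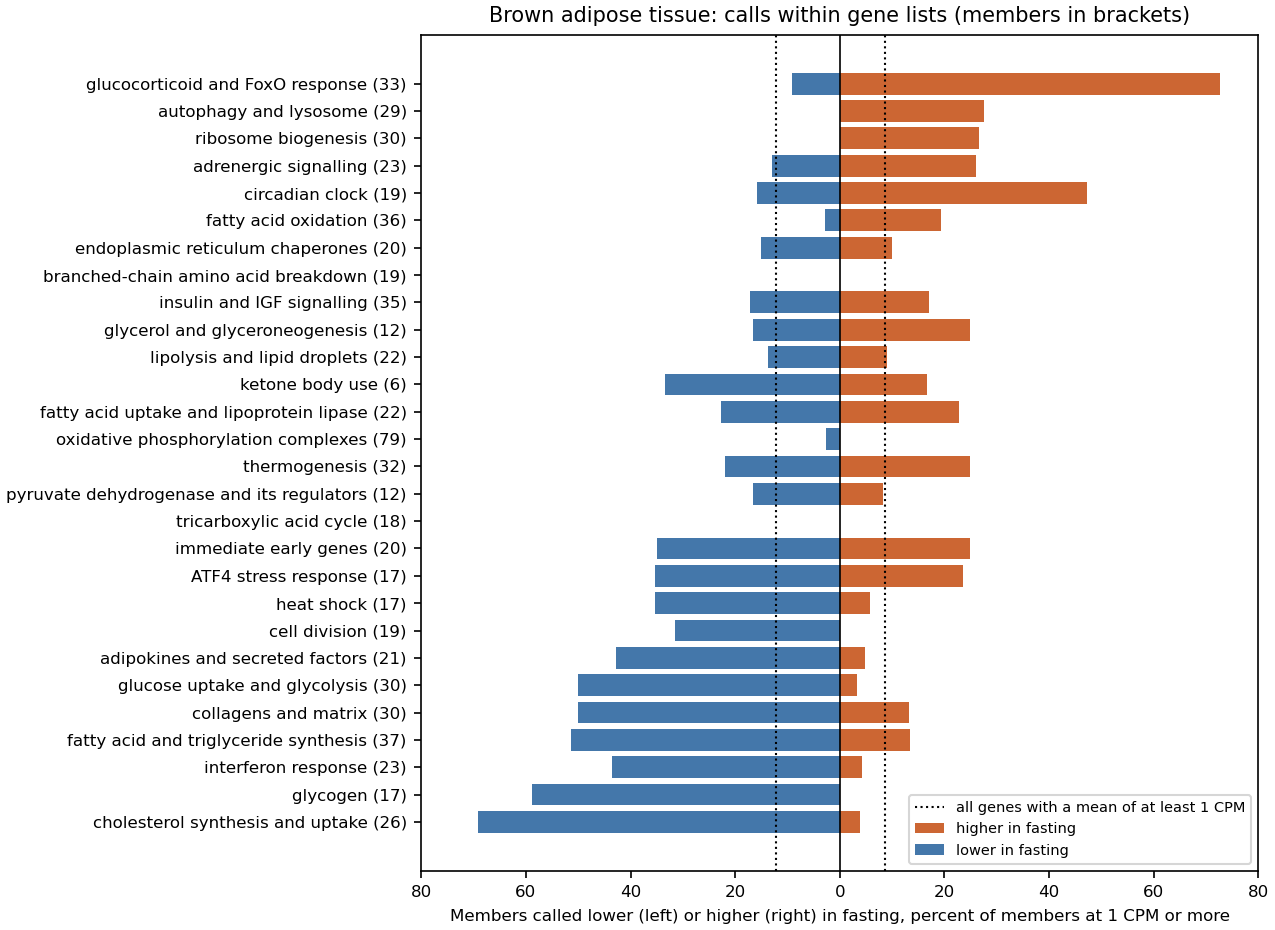
Share of the members of each of 28 pathway lists that were called lower (left, blue) or higher (right, orange) in fasting brown adipose tissue, in percent of the members with a mean of at least 1 CPM (their number in brackets), ordered by median log2 fold change. Dotted lines mark the shares over all such genes, 12.2% lower and 8.71% higher; cholesterol synthesis reaches farthest to the left with 18 of 26 and the glucocorticoid and FoxO list farthest to the right with 24 of 33.

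Signalling through insulin and IGF-1 had 6 rises and 6 falls among 35 members. Irs2, the insulin receptor substrate, rose from 120 to 282 CPM and Igfbp3, an IGF binding protein, from 14.7 to 53.6 CPM, whereas Grb14, an inhibitor of the insulin receptor, fell from 72.9 to 20.2 CPM and Igf1 from 62.5 to 27.9 CPM. The receptor Insr stood at 264 and 337 CPM. Of 29 autophagy and lysosome genes, 8 rose and none fell, with Gabarapl1 (139 to 353 CPM) and Map1lc3b (139.9 to 351 CPM), which encode proteins of the autophagosome membrane, and the receptor Sqstm1 (187 to 391 CPM) among them. Of 30 ribosome biogenesis genes, 8 rose and none fell, with Gnl3 (27.7 to 63.6 CPM) and Npm1 (94.95 to 164 CPM) among them.

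Of 21 adipokine and secreted factor genes with a mean of at least 1 CPM, 9 fell, 1 rose (Nampt, 582 to 896 CPM) and the others were not called. The list summed to 4984 CPM fed and 4746 CPM fasting. Adiponectin (Adipoq, 1115 and 998 CPM) and adipsin (Cfd, 1158 and 959 CPM) were not called. Of 30 collagen and matrix genes, 15 fell and 4 rose. Col15a1 fell from 92.1 to 15.4 CPM (-2.58 [-2.79, -2.38]), Col3a1 from 602 to 221 CPM, and Serpinh1, the collagen chaperone, from 348 to 82.6 CPM (-2.08 [-2.17, -1.98]). The basement membrane collagens Col4a1 (760 and 693 CPM) and Col4a2 (453 and 441 CPM) were not called, and the crosslinking enzyme Lox rose from 36.8 to 66.6 CPM.

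The mice were killed at the same hour, and of 19 clock genes 9 rose and 3 fell, among them Per2 (15.8 to 60.7 CPM), Per1 (34.7 to 108 CPM) and Dbp (22.7 to 8.56 CPM). Clock itself stood at 210.1 and 218 CPM. Of 20 endoplasmic reticulum genes, 2 rose and 3 fell, shares near those of all genes, and the falls included the chaperone Hyou1 and Edem1. Herpud1, a degradation component, rose from 79.8 to 329.5 CPM (2.04 [1.96, 2.13]), while the chaperone Hspa5 stood at 350.1 and 375 CPM. Of 17 heat shock genes, 6 fell and 1 rose. Of 23 interferon response genes, 10 fell, such as the GTPase gene Iigp1 (70.2 to 30.9 CPM), and Rsad2 rose from 25.7 to 55.5 CPM. The immediate early genes moved both ways, with Egr1 falling from 38.8 to 9.06 CPM and Myc rising from 2.95 to 12.1 CPM.

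Promoter windows were searched for all 28 lists, and are described for the cholesterol list and the glucocorticoid and FoxO list, which had the largest shares of calls in 1 direction. Windows of 250 bases before to 50 bases after a start site came from RefSeq on GRCm38.p6, and 10247 genes with a mean of at least 1 CPM had at least 1 window. The letters of the sterol regulatory element (TCACNCCAC), a FoxO site (GTAAACA), a cyclic AMP response element (TGACGTCA), an E-box (CACGTG) and a CCAAT box (CCAAT) were sought on both strands, each motif apart from the others. Of the 18 cholesterol genes that fell, 13 had a window, of which 12 held CCAAT (92.3%), 4 the E-box (30.8%) and 1 the sterol element (7.69%). Among all 10247 genes these shares were 42.6%, 11.5% and 1.38%. The CCAAT share was not particular to the falls, since 17 of the 20 genes of the whole cholesterol list with a window held it (85.0%), as did 17 of 18 endoplasmic reticulum genes (94.4%) and 7 of 7 fatty acid oxidation genes that rose. Of the 24 glucocorticoid and FoxO genes that rose, 22 had a window, of which 4 held the FoxO letters (18.2%, against 3.22%) and 8 the E-box (36.4%). The list was chosen for response to these factors, so its FoxO share is not independent of that choice. In the whole list 10 of 28 genes with a window held the E-box (35.7%), so that share was not particular to the rises. The E-box share was 42.9% (3 of 7) for the rises of both the autophagy and the ribosome biogenesis list. A match is only a match of letters. The 250 bases before the start are shown for Hmgcs1, for Mvd, the largest fall with a CCAAT box (mevalonate decarboxylase, 4.998 CPM fed and 1.47 CPM fasting), and for both genes outside the muscle group with FoxO letters there, Klf9 (210 to 446 CPM) and Txnip. Capitals mark the sterol element in Hmgcs1 (chr13:119690101-119690350, plus strand, first base 137 bases before the start), 2 CCAAT boxes in Mvd (chr8:122443423-122443672, minus strand, at 60 and 27 bases), and the FoxO letters in Klf9 (chr19:23140976-23141225, plus strand, at 100 bases) and Txnip (chr3:96557707-96557956, plus strand, at 121 bases). All are written 5′ to 3′ on the strand of the gene.
Hmgcs1: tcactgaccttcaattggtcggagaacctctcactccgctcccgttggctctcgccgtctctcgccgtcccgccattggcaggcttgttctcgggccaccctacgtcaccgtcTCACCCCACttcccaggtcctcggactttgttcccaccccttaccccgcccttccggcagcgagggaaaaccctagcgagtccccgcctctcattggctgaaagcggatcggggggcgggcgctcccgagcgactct
Mvd: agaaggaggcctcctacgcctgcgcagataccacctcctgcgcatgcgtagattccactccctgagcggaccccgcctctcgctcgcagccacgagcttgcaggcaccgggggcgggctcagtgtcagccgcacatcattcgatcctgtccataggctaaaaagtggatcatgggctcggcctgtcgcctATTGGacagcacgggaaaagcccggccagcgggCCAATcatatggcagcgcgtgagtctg
Klf9: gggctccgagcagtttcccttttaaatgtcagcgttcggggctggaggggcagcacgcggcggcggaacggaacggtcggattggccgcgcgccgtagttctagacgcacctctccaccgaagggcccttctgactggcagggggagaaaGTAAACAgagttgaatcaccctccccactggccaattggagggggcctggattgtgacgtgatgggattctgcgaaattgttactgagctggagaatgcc
Txnip: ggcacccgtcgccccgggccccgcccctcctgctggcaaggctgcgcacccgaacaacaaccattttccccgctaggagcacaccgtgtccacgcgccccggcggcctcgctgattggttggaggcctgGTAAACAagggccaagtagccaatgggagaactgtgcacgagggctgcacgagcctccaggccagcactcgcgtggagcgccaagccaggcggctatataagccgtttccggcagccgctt

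The fasting response of brown adipose tissue was set beside that of the other tissues. Over the 10792 genes that reached 1 CPM in each of the 16 libraries, the Pearson correlation of log2 fold changes (pseudocount 1 CPM) was 0.46 with both muscle and heart, 0.43 with white adipose tissue, 0.40 with lung, 0.35 with kidney, 0.25 with liver and 0.24 with spleen. The order of the first 3 was not stable, since white adipose tissue came first with genes at 5 CPM or more (0.49, against 0.48 for heart and 0.47 for muscle) and by Spearman's rho (0.44 for white adipose and muscle, 0.43 for heart). These are descriptions across genes, which are not independent replicates. The tissues came from the same 2 groups of mice, and brown adipose tissue carried muscle genes. Several leading genes were shared. Depp1, Ddit4, Fkbp5 and Acot1 were higher in fasting in all 8 tissues, and only muscle had a larger log2 fold change of Depp1 (6.00 against 5.12) and Ddit4 (5.13 against 3.73). For Acly, brown adipose tissue had the lowest log2 fold change of the 8, followed by liver (-2.05) and white adipose tissue (-1.55). For Tfrc it was followed by heart (-3.52) and muscle (-2.41). Slc2a5 stood at 0.644 and 2.62 CPM in fed and fasting white adipose tissue, and in muscle it was below the floor of 3 counts in both libraries.

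**Figure D5:**
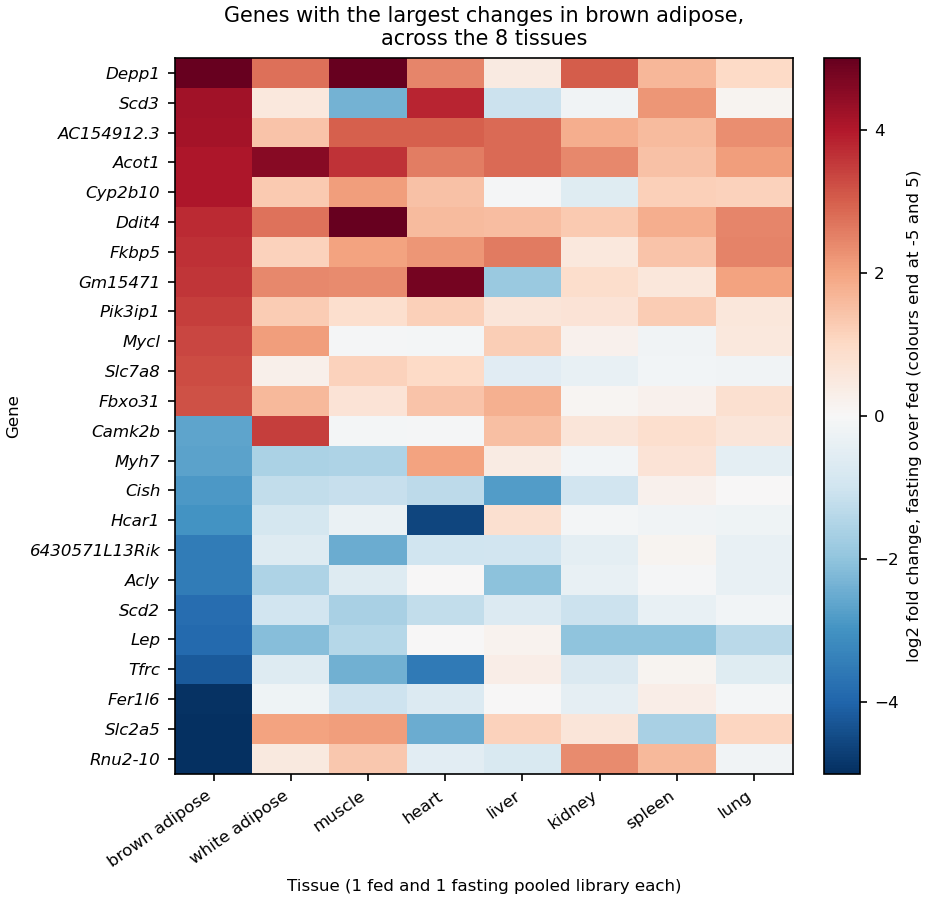
Log2 fold change, fasting over fed, of the 12 largest rises and 12 largest falls of brown adipose tissue (rows) in each of 8 tissues (columns), with 1 fed and 1 fasting library per tissue. Red is higher and blue lower in fasting, and genes with few counts in a tissue can show large values there; Depp1 is red in all 8 columns, whereas Acly is darkest in the brown adipose column, where it reaches -3.50.

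To ask which genes responded differently in brown adipose tissue, all 16 libraries were fitted with a common fasting effect and an extra term for fasting brown adipose tissue, and the term was tested with the quasi-likelihood test of edgeR (p-values adjusted by Benjamini-Hochberg). The other tissues stand in for replicates here, since the spread is taken from how their responses differ. Of 17296 genes, 1 was called at an adjusted p-value under 0.05 (0.00578%), and 1034 had an unadjusted p-value under 0.05. That gene was Prune2, on chromosome 19 (16956118 to 17223932), which had 52.5 CPM in fed and 10.4 CPM in fasting brown adipose tissue, a log2 fold change of -2.34. In the other 7 tissues its log2 fold change lay between -0.41 (liver) and 0.20 (white adipose). The log2 difference was -2.37 (SE 0.19, adjusted p = 0.00681). Without the heart libraries its adjusted p was 0.0979 in the same test. On simulated counts this fit recovered 63 of 100 genes changed 4-fold and 2 of 100 changed 2-fold in brown adipose tissue.

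The same model with a term for each adipose tissue compared brown with white. It called 195 of 17296 genes (1.13%), with a response that was lower in brown adipose tissue for 185 and higher for 10. The fasting white adipose library stood apart: 10 epithelial markers, a list written after the data were seen, summed to 35.1 CPM in fed and 355 CPM in fasting white adipose tissue, but to 3.97 and 4.42 CPM in brown. Of the 185 genes, 172 were more than 2-fold higher in fasting white adipose tissue, and 55 of all 195 had a mean under 1 CPM in brown adipose tissue. Of the 195, 82 were also called between the brown adipose libraries. The 5 lowest differences were those of Baiap2l2, Arhgef16, Uckl1os, Cldn2 and Rab17, all at 1.81 CPM or less in both brown libraries. Cldn2, a tight junction gene of epithelia, had 2.40 CPM in fed and 106.5 CPM in fasting white adipose tissue. The part of epithelial RNA in these calls was not tested.

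The 5 highest differences included a gene of triglyceride synthesis. Dgat2, which carries out the last step of triglyceride synthesis, stood at 1842 and 1919 CPM in brown and at 2114 and 167 CPM in white adipose tissue, a log2 difference of 3.84 (SE 0.42, edgeR adjusted p = 0.005245). The cell cycle inhibitor Cdkn2c fell from 86.2 to 54.0 CPM in brown, and stood at 197 and 29.0 CPM in white, a difference of 2.202 (SE 0.33). Pik3ip1 had a difference of 2.32 (SE 0.38), with 12.5 and 30.2 CPM in white adipose tissue. Prodh, the proline dehydrogenase, rose in brown from 29.4 to 69.3 CPM and stood at 94.8 and 64.0 CPM in white, a difference of 1.92 (SE 0.34). AC154912.5, within Fkbp5 on the same strand, had 0.241 and 13.1 CPM in brown and 6.53 and 17.7 CPM in white adipose tissue.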

How the data were processed

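Short-read RNA-Seq counts of fed and fasting brown adipose tissue were analysed, with the other 7 tissues for comparison. The authors deposited whole-number counts per gene, made from strand-specific paired-end reads with fastp 0.23.2, FastQC 0.11.8, HISAT2 2.2.1.0 on GRCm38 and featureCounts (Subread 2.0) on GENCODE release 24, without normalization. They also deposited gene lengths (an other value), used for levels per kilobase. Whether reads or pairs were counted is not stated. Of 55385 genes, 55144 matched a symbol of an older release of the same build, and 37 mitochondrial genes had 0 counts in all libraries.

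From these counts, CPM, fold changes and Fisher's exact test follow the study's methods. On libraries simulated with counting error only, the test recovered 94 of 100 genes changed 2-fold and 100 of 100 changed 4-fold, with 68 false among 262 calls. The simulation held no spread between mice or libraries, so these figures do not cover that spread. Fits across tissues used edgeR 4.0.16 with TMM factors and filterByExpr, with 6 residual degrees of freedom against the other tissues and 5 against white adipose. Alternatives used DESeq2 1.42.0. Python 3.11.15, scipy 1.17.1 and R 4.3.3 were used. On simulated counts the fit against white adipose tissue recovered 28 of 100 genes changed 4-fold and 0 of 100 changed 2-fold.

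The comparison, lists and rules were chosen with earlier results of these data known. Named genes were Ucp1 and Cidea, the 12 largest called rises and falls with a mean of at least 10 CPM, not 20 times higher in muscle, and the 4 highest of those left out. From each list came the 3 highest members, the 3 largest changes each way at a mean of at least 5 CPM, and all members of lists of up to 12. From each fit came the 5 largest differences each way. Other list members, named as examples of a count, were chosen after their values were seen. Some genes are not reported here by name.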

Additional observations from a re-analysis of the deposited data

Results flagged for a closer look

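The response to fasting differed between brown adipose tissue and the other tissues, by edgeR's quasi-likelihood test of the difference itself, for 1 gene, Prune2 (log2 difference -2.37). It differed between brown and white adipose tissue for 195 genes. Of these, 185 were lower in brown, and 172 of the 185 were more than 2-fold higher in the single fasting white adipose library. In white adipose tissue the epithelial markers summed to 35.1 CPM fed and 355 CPM fasting. The highest differences among the 195 were those of AC154912.5 (4.42), Dgat2 (3.84), Pik3ip1 (2.32), Cdkn2c (2.202) and Prodh (1.92). The lowest were those of Baiap2l2 (-10.14), Arhgef16 (-9.97), Uckl1os (-7.63), Cldn2 (-7.37) and Rab17 (-7.29), which had few counts in brown adipose tissue. Baiap2l2 and Arhgef16 had 0 counts in the fasting brown adipose library, so their fitted values depend on the prior count and are no bound. No group had more than 1 library, so single libraries could not be set against others of their group.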

How the results depend on the processing

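With 1 pooled library per condition, spread between mice could not be measured, and genes under about 1 CPM rest on few counts. The 3346 calls between the 2 brown adipose libraries (1390 rises, 1956 falls) stayed within 1.5 times under a pseudocount of 1, TMM factors, DESeq2 size factors, a library size without the 10 highest genes, a filter at 1 CPM, adjusted p-values and both ways of taking out muscle genes, and also under TMM factors of the 2 libraries alone, added after seeing the data. A log2 fold change above 1 left 1424 calls (546 and 878). With edgeR's exact test and a coefficient of variation set to 0.2, 833 were left (317 and 516), and with 0.4, 129 (53 and 76). At 0.2 the falls of fatty acid synthesis went from 19 to 10 and those of cholesterol genes from 18 to 8, and the glucocorticoid and FoxO rises from 24 to 14; at 0.4 these were 3, 0 and 5. Other lists lost calls at 0.2 as well. Glycolysis falls went from 15 to 3, glycogen falls from 10 to 4 and clock rises from 9 to 3. Ribosome biogenesis rises went from 8 to 1, autophagy rises from 8 to 3 and interferon falls from 10 to 3. Collagen and matrix falls went from 15 to 6, and thermogenesis rises from 8 to 4 and falls from 7 to 1. Adrenergic signalling went from 6 rises and 3 falls to 2 and 2, and fatty acid uptake from 5 and 5 to 1 and 3. At 0.2, 72 of 374 named genes lost their call. Among them were Fasn, Lpl, Acsl1, Pck1, Pde3b, Nr4a1, Pkm, Dlat, Hmgcs1 and Insig1, and also Prdm16, P2rx5, Kcnk3, Zic1, Lhx8 and Otop1. With the muscle part subtracted, scaled by the fast markers, Myh4 went to 12.10 from a called fall, because its fed value became 0. All 6 slow muscle markers still fell after this subtraction, and none of them was at least 20 times higher in muscle. Neither way of taking out muscle genes therefore removed the slow markers. TMM factors took Gbe1 and Kdr below the threshold (both -0.49). Counted over all members, also those under 1 CPM, falls went from 10 to 9 for glycogen and interferon and 8 to 6 for cell division genes. They went from 7 to 6 for thermogenesis, the ATF4 stress response and the immediate early genes, where rises went from 5 to 6 for the last.

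Against the other tissues, the 1 call became 95 with DESeq2's Wald test (21 higher, 74 lower) and 10 with no filter, and 0 to 3 when a tissue was left out, with 0 without heart. The adjusted p of Prune2 ranged from 1.651e-18 with DESeq2 to 0.0979. Against white adipose tissue, the 195 calls became 492 with DESeq2 and 465 with no filter, and 134 to 239 when another tissue was left out. The cause of these differences was not tested. The median correlation of fold changes with the other tissues, 0.40, lay between 0.37 and 0.40 under the alternatives. No paired analysis was possible because the labels give no replicate numbers and each group has 1 library, although the fits across tissues compared fed with fasting within each tissue.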

Other observations

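Several gene groups were not described above. Among the ketone body genes, the monocarboxylate transporter Slc16a7 fell from 76.2 to 29.3 CPM. Oxct1, which starts ketone body use, stood at 358 and 319 CPM. Of 17 genes of the ATF4 stress response, 4 rose, 1 of them at least 20 times higher in muscle, and 6 fell. Of 19 cell division genes with a mean of at least 1 CPM, 6 fell and none rose, and the cyclin Ccnd1 fell from 9.88 to 3.02 CPM. By annotation, 1047 of the 1390 genes that rose and 1725 of the 1956 that fell between the 2 libraries were protein-coding.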
